A study of Rattus norvegicus with 18 samples.

Results

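Cxcl1, Cxcl2 and Cxcl3 are neutrophil-attracting CXC chemokines, measured here in proximal sciatic nerve during the first 9 h after the nerve was cut. The members are the non-control probes whose gene name in the scanner output is one of these 3 symbols, or whose accession maps to one of them. That gave 3 genes and 4 probes of 41012 probes on the array, and 3 of the 4 probes, 1 per gene, were among the 32116 probes (27203 genes) with a signal well above background on every array of at least 1 time-point. These genes were selected on their measured levels over the 6 time-points of the same arrays, so the levels are described without a test. Total RNA came from adult male Sprague-Dawley rats weighing 180 to 220 g, in which a 1 cm piece of the left sciatic nerve was resected under anaesthesia. A 0.5 cm piece of the proximal stump was taken at the time of resection (0 h) or after a delay of 0.5, 1, 3, 6 or 9 h, with 3 one-colour arrays per time-point and 18 in all. Every group, the 0 h group included, was operated on, so each comparison is with nerve taken at the time of resection and not with an unoperated animal. How many rats stand behind one array is not given in the sources used here, so the spread between arrays may be partly technical.

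CXC chemokines are small secreted proteins with a pair of conserved cysteines held apart by a single residue. Those that carry the ELR motif just before that pair, Cxcl1, Cxcl2 and Cxcl3 among them, act through the receptor Cxcr2 and draw neutrophils out of the blood along a concentration gradient. Their genes sit side by side in one cluster, are switched on within minutes by interleukin 1, tumour necrosis factor and Toll-like receptor signals through NF-kB, and give mRNAs with AU-rich tails that are short-lived unless stabilised. Injured nerve recruits neutrophils first and monocytes later, and Schwann cells, fibroblasts, endothelium and resident macrophages are all known sources of these ligands.

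The 3 tested probes lie on the minus strand of chromosome 14 in the rn4 build, at chr14:18690468-18690527 for Cxcl1, chr14:18677236-18677295 for Cxcl2 and chr14:18786864-18786923 for Cxcl3. The Cxcl3 probe is shown because 2 probes carry that gene's name and only this one followed the time course described below.

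Cxcl3 probe: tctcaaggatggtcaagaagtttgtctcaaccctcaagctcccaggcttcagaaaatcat

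The probes of different ligands shared no run longer than 8 bases out of 60, which was the longest run common to Cxcl1 and Cxcl3. The stretches of 120 bases before the transcription start of Cxcl1, Cxcl2 and Cxcl6 are shown next, from RefSeq in the GRCr8 build and 5′ to 3′ on the minus strand, because Cxcl1 and Cxcl2 were both high by 0.5 h while Cxcl6, the remaining ligand with both motifs in this stretch, was not. Capitals mark matches to the NF-kB consensus, read on both strands and overlapping each other, and to the TATA-type sequence ATAAAAG.

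Cxcl1, chr14:17479322-17479441: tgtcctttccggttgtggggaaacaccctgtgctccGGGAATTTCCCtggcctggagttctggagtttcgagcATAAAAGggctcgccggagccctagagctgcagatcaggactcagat
Cxcl2, chr14:17467256-17467375: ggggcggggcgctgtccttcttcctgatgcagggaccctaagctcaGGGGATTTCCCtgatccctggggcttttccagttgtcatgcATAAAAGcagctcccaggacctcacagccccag
Cxcl6, chr14:17596418-17596537: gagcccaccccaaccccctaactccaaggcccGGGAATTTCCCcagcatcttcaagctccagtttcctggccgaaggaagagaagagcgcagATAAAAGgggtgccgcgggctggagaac

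Of 15 rat CXC ligand genes looked for, 12 had an upstream sequence in the RefSeq table, and Cxcl3 was not among them. Over the 250 bases before the start, the NF-kB consensus was present on either strand in 5 of the 12 and in 6.33% of 33469 promoters of the same length. The first match began at base -84 in Cxcl1, at -74 in Cxcl2 and at -88 in Cxcl6, and each of these overlapped a match on the opposite strand that began 1 base further on. The other two were Cxcl10, with matches at -187 and -128, and Cxcl11, with one at -74. ATAAAAG, also searched on both strands, stood at -47 in Cxcl1, -33 in Cxcl2, -28 in Cxcl6 and, on the opposite strand, -162 in Ppbp, and was present in 5.17% of all promoters. TGANTCA, the AP-1 consensus, was present in 6.34% of promoters and upstream of Cxcl10, Cxcl11 and Cxcl14, and these letters were not in the window before Cxcl1 or Cxcl2.

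**Figure D1:**
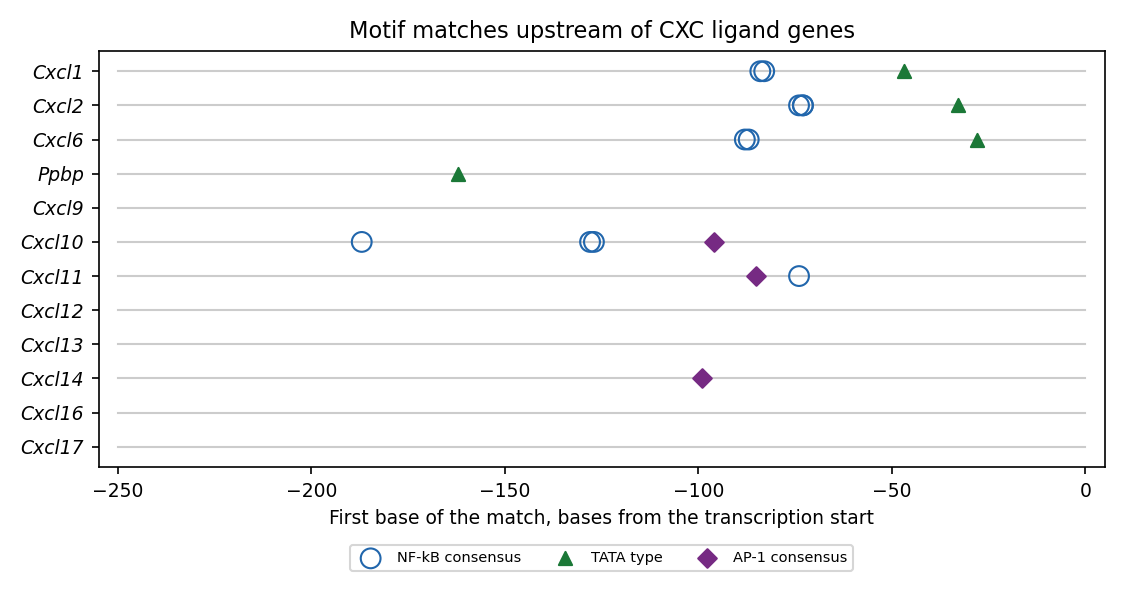
Motif matches in the 250 bases before the transcription start of the 12 CXC ligand genes with a RefSeq upstream sequence. The horizontal axis is the position of the first base of a match relative to the start, each row is a gene, and symbols mark the NF-kB consensus, the TATA-type and the AP-1 consensus sequences on either strand. Cxcl1, Cxcl2 and Cxcl6 each carry an NF-kB consensus match between -88 and -74 with a TATA-type match between it and the start.

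Levels are given as log2 of Agilent's processed signal relative to the 75th percentile of the same array, so a level of 0 equals that percentile, and only changes, not levels, are compared between probes. On this scale Cxcl1 read -1.82, -1.79 and -1.64 on the 3 arrays of 0 h, and 4.02, 3.71 and 3.73 at 0.5 h. Its 1 h arrays read 4.57, 4.80 and 4.31 and its 3 h arrays 4.14, 4.77 and 4.97. The 6 h levels were 4.08, 3.63 and 3.74, and the 9 h levels 3.28, 2.93 and 3.20. Every later array lay far above the 0 h arrays, and the arrays of 1 h and 3 h overlapped. Each of the last 2 time-points lay wholly below 3 h, with 9 h wholly below 6 h. The nearest arrays of 3 h and 6 h differed by -0.063 only.

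Cxcl1 thus moved by 5.57 on the log2 scale by 0.5 h (47.6-fold), with an SE of 0.20 that the fit gives to every difference for this probe. Its mean was highest at 3 h, 6.38 above 0 h (83.2-fold). It then fell by 0.81 from 3 h to 6 h and by 0.68 from 6 h to 9 h. At 9 h its mean stood 1.49 below that of 3 h, a 2.81-fold lower level, and was still 4.89 above 0 h (29.6-fold). On a linear scale the 0.5 h mean was 57.2% of the highest mean and the 1 h mean 95.5%, while later the 6 h mean was 56.9% and the 9 h mean 35.6%.

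Cxcl2 read -5.18, -5.74 and -5.14 at 0 h. Its 0.5 h arrays read 2.20, 1.55 and 1.78, its 1 h arrays 2.38, 2.38 and 2.73 and its 3 h arrays 1.88, 2.12 and 2.77. The 6 h levels were 2.67, 2.66 and 2.92, and the 9 h levels 2.45, 2.31 and 2.94. The 0 h arrays stood alone at the bottom, 0.5 h lay below 1 h without overlap, and the arrays from 1 h on all overlapped one another.

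The change in Cxcl2 was 7.20 at 0.5 h (147-fold, SE 0.25), the largest fitted rise among the 27203 genes at that time-point, and again the largest at 1 h with 7.85. Fitted rises of genes at background at 0 h are no bounds, so these ranks are of fitted values only. Its change then stood at 7.61 by 3 h, was largest in the 6 h arrays with 8.11 (276-fold) and ended at 7.92 (243-fold). From 1 h to 9 h the mean level stayed between 70.9% and 100% of its highest value. The difference of 9 h from 3 h was 0.31 and that of 9 h from 1 h was 0.071, both within the spread of the arrays. The Cxcl2 course was thus level from 1 h on, with no fall like that of Cxcl1 beyond the spread of the arrays.

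Cxcl3 read -5.79, -5.23 and -5.27 at 0 h, and -3.50, -3.54 and -2.71 at 0.5 h. Its 1 h arrays read -2.45, -2.11 and -1.98 and its 3 h arrays -0.01, 0.79 and 1.51. The 6 h levels were 2.16, 2.11 and 2.42, and the 9 h levels 2.39, 2.47 and 2.78. Each time-point up to 6 h lay above the one before without overlap, and only 6 h and 9 h overlapped.

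Cxcl3 was 2.18 above 0 h at 0.5 h (4.53-fold, SE 0.32) and 3.25 above at 1 h (9.53-fold). Its change reached 6.19 by 3 h (73.2-fold) and 7.66 by 6 h (203-fold), and the 9 h arrays gave the largest value, 7.98 (252-fold). Between 1 h and 3 h alone it rose by 2.94, while Cxcl1 and Cxcl2 differed between these time-points by 0.067 and -0.24. The mean level at 1 h was 3.78% of that at 9 h, and at 3 h it was 29.1%. Ordered by rise among the 27203 genes, Cxcl3 climbed from rank 136 at 0.5 h to 21 by 1 h, 7 by 3 h and 4 by 6 h and ended at rank 2, whereas Cxcl1 went from rank 4 in the 0.5 h arrays to rank 42 after 9 h.

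**Figure D2:**
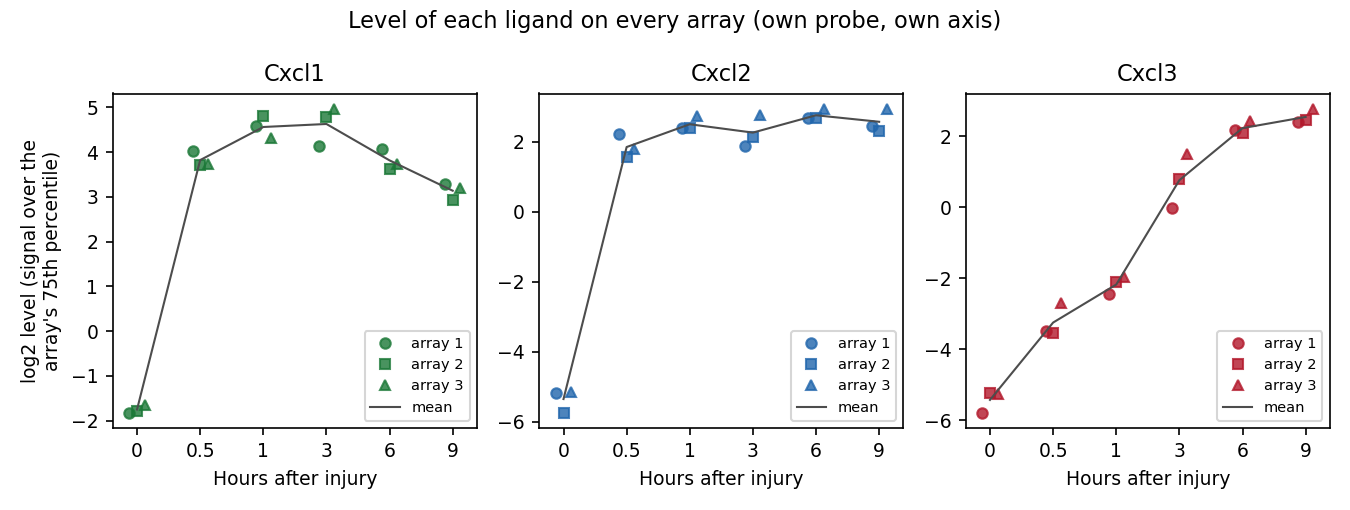
Levels of Cxcl1, Cxcl2 and Cxcl3 on each of the 18 arrays, with hours after injury spaced evenly on the horizontal axis and log2 level relative to the array's 75th percentile on the vertical axis. Symbols are the 3 arrays of a time-point and the line joins their means. Cxcl1 falls from 3 h to 9 h, Cxcl2 stays level from 1 h, and Cxcl3 climbs to 6 h.

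For all 3 ligands every array of each later time-point lay above every 0 h array. Over all genes the share whose arrays did so was 18.4% for the 0.5 h arrays and 18.9% for those of 1 h, and it grew to 20.8% by 3 h, to 24.2% by 6 h and to 28.6% in the last arrays. Only Cxcl1 had its 9 h arrays wholly below those of 3 h, and 19.4% of all genes did the same. Only Cxcl3 had them wholly above, as had 17.9% of all genes. These contrasts were known when the genes were selected, and nothing is drawn from the counts. For the ligands' other steps the share over all genes is not given here. Nothing is drawn from the lack of overlap there either.

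Within an array the scaling cancels when one ligand is taken relative to another, but the treatment of background does not. Set to 0 at 0 h, the difference of Cxcl2 from Cxcl1 was 1.63 ± 0.17 (SD, n = 3) in the 0.5 h arrays, fell to 1.23 ± 0.24 by 3 h and reached 3.03 ± 0.28 by 9 h. The difference of Cxcl3 from Cxcl2 was -5.02 ± 0.60 in the 0.5 h arrays and -4.60 ± 0.17 in those of 1 h. It narrowed to -1.42 ± 0.35 by 3 h and to -0.45 ± 0.031 by 6 h, and the 9 h arrays gave 0.055 ± 0.16. Measured from their own 0 h levels, Cxcl3 was thus far behind Cxcl2 during the first hour and level with it at 9 h. The SDs given leave out the spread of the 0 h arrays, which was 0.56 for Cxcl3 from Cxcl2. For Cxcl2 and Cxcl3 from Cxcl1 that spread was 0.31 and 0.27. Relative to Cxcl1, Cxcl3 was first at -3.39 ± 0.56 in the 0.5 h arrays and then at -0.18 ± 0.36 by 3 h. It was finally at 3.09 ± 0.26, so the order of these ligands turned over. The sizes of these differences depend on background. With a correction that adds an offset, the changes at 0.5 h were 5.36 for Cxcl1, 5.59 for Cxcl2 and 1.07 for Cxcl3. Those at 9 h were 4.66, 6.31 and 6.43 in the same order.

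**Figure D3:**
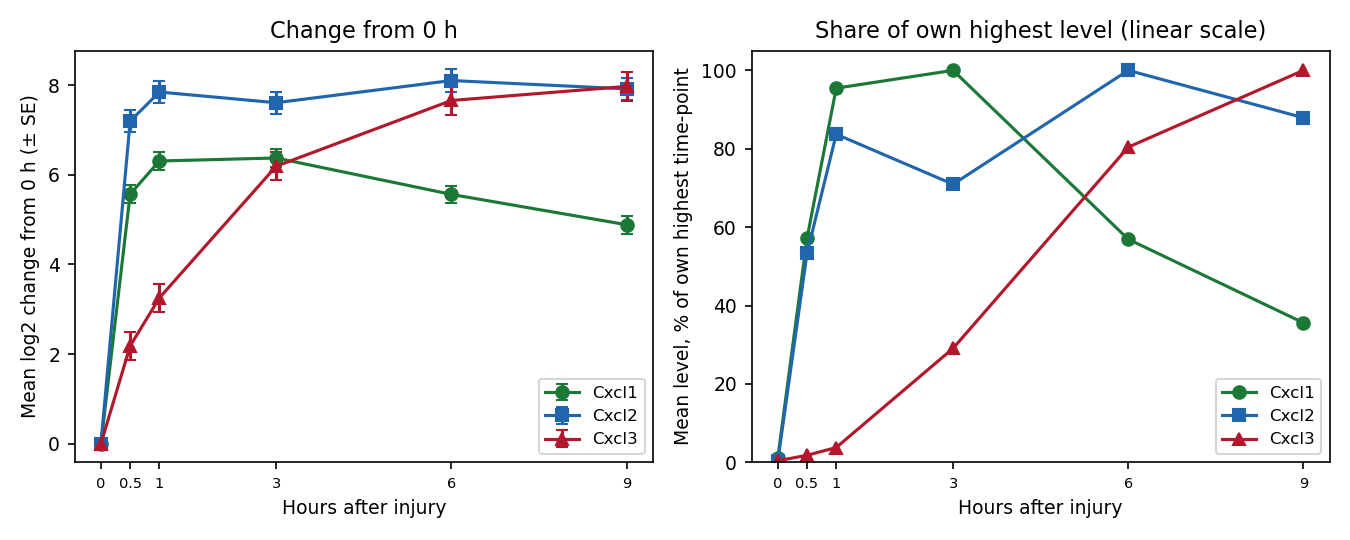
Time course of the 3 ligands, with hours after injury on a linear horizontal axis. The left panel gives the mean log2 change from 0 h with the SE of the fit (n = 3 arrays per time-point), and the right panel gives each mean level as a percentage of the gene's own highest time-point on a linear scale. Cxcl1 and Cxcl2 are above 50% of their highest level at 0.5 h, when Cxcl3 is at 1.80%.

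The arrays of 3 h were the least alike for each ligand, with SDs of 0.43 for Cxcl1, 0.46 for Cxcl2 and 0.76 for Cxcl3. In all 3 cases array 1 was the lowest and array 3 the highest. The summed level of the 12 tested neutrophil markers was also widest at that time-point, from 9.91 to 24.5, and the part it had in the ligands' spread was not tested.

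A second probe named Cxcl3, at chr14:18767637-18767696, was well above background on array 3 of 3 h alone, with a processed signal of 177 there and under 10 on every other array. It was left out of the tested probes, and no time course can be read from it. The Cxcl3 course described here therefore rests on 1 probe, as do those of Cxcl1 and Cxcl2. Both Cxcl3 probes carry that name by the symbol in the scanner output only, since their accessions had no match in the RefSeq table used, whereas the Cxcl1 and Cxcl2 probes were matched by accession. Which transcript the Cxcl3 values measure was not checked further. All 3 tested probes were well above background on all 18 arrays, though Cxcl2 and Cxcl3 had processed signals of only 24.3 to 38.6 at 0 h. With a background correction that adds an offset (normexp), the change at 0.5 h was 5.59 for Cxcl2 and 1.07 for Cxcl3, and 5.36 for Cxcl1. The sizes of the Cxcl2 and Cxcl3 folds over 0 h consequently depend on how background was treated, while the difference of 9 h from 3 h was -1.26, 0.42 and 1.94 for the 3 ligands in turn under the same correction.

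One scan day covered the 0 h and 0.5 h arrays, another covered 1 h to 6 h and arrays 1 and 2 of 9 h, and array 3 of 9 h was scanned on a day of its own. The jump to 0.5 h therefore lies within 1 scan day, but for 1 h and later against 0 h the scan day and the time-point cannot be told apart. With scan day as a block the difference of 9 h from 3 h was -1.52 for Cxcl1, 0.12 for Cxcl2 and 1.67 for Cxcl3. Each of the 9 slides held arrays of 1 time-point only.

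The genes whose course was most like each ligand were taken from 606 other genes that moved by at least 2 on the log2 scale, each course divided by its own largest change. Cxcl2 ranked 4th for Cxcl1, with a root mean square difference of 0.114, after Csrnp1 (0.0505), Has1 (0.0664) and Socs3 (0.100) and level with Adamts1 (0.114). Socs3 encodes an inhibitor of cytokine signalling induced by interleukin 6, and Has1 a hyaluronan synthase. For Cxcl2 the nearest were Has1 (0.0572), Ep400 (0.0653), Socs3 (0.109), Cxcl1 and Adamts1 (0.129).

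Cxcl3 shared none of these neighbours. Its nearest were Apoa4 (0.0376), Nos2 (0.0455), the inducible nitric oxide synthase, Fcar (0.0521), Armc12 (0.0564) and Hk2 (0.0611), a hexokinase, over 5 mean changes in each case. Apoa4 and Nos2 were not well above background on any 0 h array, so their early changes carry little information. By the same measure Cxcl1 and Cxcl3 differed by 0.403 and Cxcl2 and Cxcl3 by 0.380, which placed Cxcl3 218th among 606 genes for Cxcl1 and 179th for Cxcl2.

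For genes that did not choose the members, a call needed an unadjusted P under 0.01 and an adjusted P under 0.05 in the moderated fit. Over 6 lists of ligands, receptors, inducers, NF-kB genes, decay factors and genes of neutrophil exit, 58 of 65 genes were tested. Of these, 10 rose at 0.5 h and 0 fell, against 4.28% of all genes higher and 1.72% lower. At 1 h 14 rose and 1 fell (3.59% and 2.04% of all genes). The number that rose grew to 28 by 3 h (7.15% of all genes), 31 by 6 h (12% of all genes) and 32 by 9 h (15.8% of all genes), and 0 fell, where 6.83%, 13% and 15.4% of all genes were lower. At an unadjusted P under 0.05 in limma, between 1 and 3 of the 58 were lower at each of the 5 time-points. Over all time-points together 40 of 58 were called by the F-test, against 34.6% of all genes. These lists were drawn up with earlier results of the same arrays known, so the counts are not independent evidence of direction.

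Of the 10 other CXC ligands tested, 1 rose at each time-point of the first hour, 5 had risen by 3 h and 4 by 6 h, and the 9 h arrays gave 3. The call at 0.5 h was Ppbp, a platelet chemokine, with a change of 1.61 (adjusted P = 0.0366), lost under 9 alternatives that include every array of 0 h or 0.5 h left out in turn. The call at 1 h was Cxcl11 with 2.64 (adjusted P = 0.0377), lost under 10 alternatives, among them normexp and the removal of array 1 or 2 of 0 h. The median change of the 10 was 0.39 at 0.5 h and 1.28 at 9 h, beside 0.0024 and 0.015 over all genes. Cxcl6, at background on every array of 0 h and 0.5 h, counts in the 0.5 h median with a change of 1.28. That median can therefore not be read as a rise of the list. Cxcl6, another ELR ligand of Cxcr2, read -8.76, -8.48 and -8.58 at 0 h and was not well above background on any array up to 1 h. Its 3 h arrays read -6.68, -4.89 and -5.45, its 6 h arrays -2.64, -4.27 and -3.30, and its 9 h arrays -3.80, -3.86 and -4.49. The 6 h arrays were all above those of 3 h and of 0 h, at least 8.59-fold higher than 0 h (adjusted P = 1.92e-06), and 9 h was at least 5.49-fold higher (adjusted P = 4.6e-06). Cxcl6 therefore came later than Cxcl1 and Cxcl2 and had no measured level in the first hour, although its calls were lost under the normexp correction.

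Cxcl9, Cxcl10 and Cxcl11 are known as interferon-induced ligands. Cxcl11, which attracts T cells through Cxcr3, read -6.71, -6.43 and -4.46 at 0 h, with 1 of these arrays well above background, and -1.48, -0.52 and -0.54 at 3 h. It rose by 5.03 at 3 h (SE 0.68, adjusted P = 0.000276) and fell by 3.07 between 3 h and 9 h (adjusted P = 0.00819). Cxcl10 rose by 2.56 at 3 h (adjusted P = 0.0221), but its 0 h arrays read 0.67, -0.08 and 3.04, and the call was lost with normexp and without array 1 or 2 of 0 h or array 2 or 3 of 3 h, the change lying between 1.92 and 3.48 over all arrays left out in turn. Its difference of 9 h from 3 h was -1.16 and was not called (adjusted P = 0.271). Cxcl9 was not called against 0 h, with a change of 0.51 (SE 0.26) at 3 h.

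Cxcl14, a homeostatic ligand of epithelium and connective tissue, was already clear at 0 h with 1.51, 1.32 and 0.94. Its 3 h arrays read 2.25, 2.84 and 3.00, its 6 h arrays 4.34, 4.83 and 4.59, and its 9 h arrays 5.49, 5.28 and 5.89, each time-point above the last. The rise was 1.44 at 3 h (adjusted P = 0.00134) and 4.29 at 9 h (19.6-fold, SE 0.24, adjusted P = 6.22e-08), and Cxcl14 at 0.5 h and 1 h had changes of -0.21 and -0.16. Cxcl12, the ligand of Cxcr4, had changes between -0.21 and -0.02 (SE 0.12) and was not called.

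Among 6 tested CXC receptors only Cxcr2 rose from 3 h on, and the list's median change at 3 h was 0.023, beside 0.00038 over all genes. Cxcr2 read -6.25, -7.75 and -6.80 at 0 h and was well above background on 1 of 3 arrays at each time-point up to 1 h. Its 3 h arrays read -3.62, -3.19 and -2.19, its 6 h arrays -1.80, -2.43 and -2.24, and its 9 h arrays -2.33, -2.66 and -1.95. All arrays from 3 h on lay above all earlier ones. It had risen by 3.93 after 3 h (SE 0.53, adjusted P = 0.00027) and by 4.78 after 6 h (adjusted P = 3.07e-05), with a change of 4.62 in the 9 h arrays, and Cxcr2 also rose from 1 h to 3 h by 2.69 (adjusted P = 0.00548). At 1 h, when Cxcr2 was still near background, Cxcl1 stood at 95.5% and Cxcl2 at 83.7% of their highest level.

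Ackr3, a scavenging receptor for Cxcl11 and Cxcl12, rose by 0.73 at 0.5 h (adjusted P = 0.00913) and was at -0.01 at 3 h. That call was lost with normexp and when arrays were scaled to their median, and the call at 1 h (0.55, adjusted P = 0.033) was lost under 8 alternatives, among them leaving out array 1 or 3 of 0 h or any single array of 1 h. Cxcr4 changed by -0.42 to -0.07 and was not called. Cxcr1 had no tested probe.

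**Figure D4:**
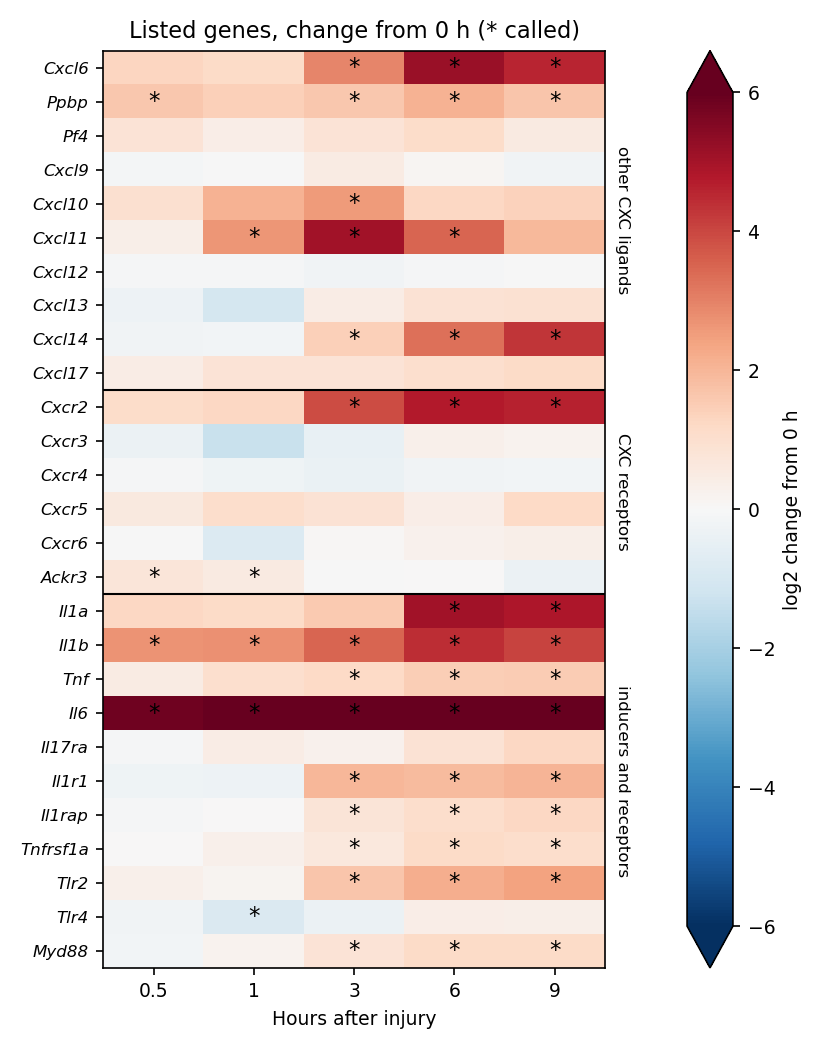
Mean log2 change from 0 h of the 27 tested genes in the lists of other CXC ligands, CXC receptors, and inducing cytokines with their receptors, by hours after injury. Red is higher and blue lower than 0 h on the colour scale, which ends at 6 in either direction, and asterisks mark calls. Il6 is called at all 5 time-points, Cxcr2 and Cxcl14 from 3 h, and Cxcl6, Il6, Il1a and Tnf were well above background on no 0 h array, so their colours are not bounds.

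Cytokines that switch these ligands on were next. Of 11 inducers and receptors tested, 2 rose at 0.5 h, 2 rose and 1 fell at 1 h, and 8 had risen by 3 h and 9 at each of the later time-points. The list's median change was 0.029 at 0.5 h and 1.20 at 3 h, beside 0.0024 and 0.00038 over all genes. Il1b read -1.40, -2.09 and -0.99 in the 0 h arrays, 1.31, 0.88 and 1.37 by 0.5 h, and 3.04, 2.66 and 3.12 by 6 h. It rose by 2.68 at 0.5 h (SE 0.33, adjusted P = 0.000518), with a rise of 4.43 by 6 h (adjusted P = 1.31e-06), and its 0.5 h arrays all lay above its 0 h arrays.

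Il6 was not well above background at 0 h and read -2.69, -2.92 and -2.59 at 0.5 h. It was at least 13.6-fold higher at 0.5 h (adjusted P = 1.96e-08) and at least 129-fold higher at 6 h (adjusted P = 1.39e-10). Il1a, the form of interleukin 1 stored in cells, was well above background on every array only from 6 h, at least 7.87-fold higher than 0 h (adjusted P = 1.59e-05). Tnf was well above background on no array up to 1 h and on all 3 arrays only at 9 h, where it was at least 1.83-fold higher (adjusted P = 0.00298).

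On the receiving side, Il1r1 rose by 2.03 at 9 h (adjusted P = 3.55e-05), having been called since 3 h, and Tlr2, a receptor for bacterial lipoproteins and tissue debris, rose by 1.68 at 3 h (adjusted P = 0.00234). Tlr4 fell by 0.87 at 1 h (SE 0.15) and was at 0.40 at 6 h. None of these receptors was called higher during the first hour, when Cxcl1 and Cxcl2 had made most of their rise. Il1r1 was well above background on 1 of 3 arrays at 0.5 h and on 2 of 3 at 1 h. A link between these receptors and the ligands was not tested.

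NF-kB subunits and their regulators made up the next list. Of 10 genes tested, 2 rose at 0.5 h, 3 at 1 h, 5 at each of the next time-points and 8 by 9 h, with a median change of 0.054 at 0.5 h and 0.64 at 9 h. Those at 0.5 h were Nfkbia and Nfkbiz, and Rel was added at 1 h. Nfkbia, which encodes the inhibitor IκBα, read 3.15, 3.27 and 2.29 in the 0 h arrays, 4.79, 4.57 and 4.83 by 1 h, and 3.16, 3.03 and 3.17 by 6 h. It rose by 1.83 at 1 h (SE 0.22, adjusted P = 0.000332) and fell by 0.99 from 3 h to 6 h (adjusted P = 0.0216), a call lost without array 1 or 2 of 3 h or any single array of 6 h. Nfkbiz, encoding the atypical IκB protein IκBζ, rose by 3.26 at 0.5 h (adjusted P = 1.13e-05) and by 1.39 at 9 h. It fell by 1.18 from 1 h to 3 h (adjusted P = 0.00838).

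Rel, an activating subunit, rose by 0.95 at 1 h (adjusted P = 0.0145), a call lost with normexp or without array 1 or 3 of 0 h or array 3 of 1 h, and by 1.58 at 3 h (adjusted P = 0.000172). Bcl3, an atypical IκB protein, rose by 1.98 at 3 h (adjusted P = 9.19e-05). The fifth call at 3 h was Nfkb1, with 0.43 (adjusted P = 0.0471), and it was lost under 18 alternatives, among them every 0 h array left out in turn. Of the other inhibitors, Nfkbie was called at 6 h with a rise of 0.70, and Nfkbib and Tnip1 at 9 h with rises of 0.34 and 0.75, the Nfkbib call being lost under 6 alternatives, namely normexp, scaling to the median, and leaving out array 1 or 2 of 0 h or array 2 or 3 of 9 h. Rela, the main activating subunit, had changes between 0.05 and 0.40 (SE 0.13) and was not called. From 3 h to 6 h, when Nfkbia fell, the Cxcl1 mean changed by -0.81, that of Cxcl2 by 0.50 and that of Cxcl3 by 1.47.

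Factors that set the life of AU-rich mRNAs were led by Zfp36, encoding tristetraprolin, which marks such mRNAs for decay. Of 7 genes in that list 3 rose at each time-point up to 6 h and 4 at 9 h, with a median change of 0.44 at 0.5 h. One of those at 0.5 h was Zfp36l1, a paralogue of Zfp36, with a change of 0.44 (adjusted P = 0.0478), and this call was lost under 17 of 28 alternatives, among them every array of 0 h or 0.5 h left out in turn. Zfp36 read -5.68, -5.40 and -5.37 in the 0 h arrays and -0.61, -0.99 and -0.98 by 0.5 h. Its 3 h arrays read -2.66, -2.16 and -3.20 and its 9 h arrays -2.57, -2.51 and -3.51. It rose by 4.63 at 0.5 h (24.7-fold, SE 0.26, adjusted P = 5.24e-07), fell by 1.51 from 1 h to 3 h (adjusted P = 0.00282) and was still 2.62 above 0 h at 9 h. The 3 h arrays were all below those of 0.5 h and above those of 0 h.

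Khsrp, another decay factor, rose by 0.78 at 0.5 h (adjusted P = 0.00287), and Zc3h12a, the endonuclease Regnase-1, by 1.23 at 3 h (adjusted P = 0.00622). Elavl1, which encodes the stabilising protein HuR, had changes between -0.12 and 0.13 (SE 0.08) and was not called.

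Genes of neutrophil exit from vessels and of neutrophil growth came next. Of 14 tested, 1 was called higher at 0.5 h and 4 at 1 h, 6 had risen by 3 h and 9 by 6 h, and the 9 h arrays gave 7. The median change was 0.23 at 0.5 h and 1.47 at 6 h. At 0.5 h 4 of the 14 were well above background on no array, so the median there cannot be read as a rise. Csf3, encoding granulocyte colony-stimulating factor, read -3.36, -2.23 and -3.46 at 3 h and was not well above background on any array before. Its call at 0.5 h, the 1 counted there, thus compares readings at background and was lost under 10 alternatives. It was at least 11.3-fold higher at 3 h than at 0 h (adjusted P = 2.16e-07) and fell by 2.34 from 3 h to 9 h (adjusted P = 0.000671). Csf2 was at least 11.5-fold higher at 3 h (adjusted P = 3.33e-05).

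Sele, the E-selectin of activated endothelium, read -2.34, -3.30 and -1.42 in the 0 h arrays, -1.05, 0.05 and -0.27 by 1 h, and -2.77, -2.07 and -2.26 by 3 h. It rose by 1.93 at 1 h (SE 0.41, adjusted P = 0.016), a call lost with normexp or without array 2 of 0 h or array 2 or 3 of 1 h, and fell by 1.94 from 1 h to 3 h (adjusted P = 0.00892). The 1 h arrays lay above those of 0.5 h and 3 h without overlap. Its 6 h arrays read -1.38, -0.88 and -0.54 and its 9 h arrays lay between -1.47 and -0.96, again all above those of 3 h. Selp, encoding P-selectin, was at least 5.02-fold higher at 6 h (adjusted P = 0.000171), and Icam1 rose by 0.91 at 1 h (adjusted P = 0.00903), with a rise of 1.66 by 6 h (adjusted P = 2.11e-05). Vcam1, Icam2 and Pecam1 were not called at any time-point against 0 h, with changes at 6 h of -0.29, -0.36 and 0.19.

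Between later time-points 16 of the 58 listed genes rose and 5 fell from 1 h to 3 h, against 5.58% and 4.57% of all genes. From 3 h to 6 h 4 rose and 1 fell (2.79% and 2.57% of all genes). From 6 h to 9 h 0 were called either way by limma, against 0.011% of all genes, and at an unadjusted P under 0.05 there were 4 higher and 5 lower.

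Neutrophil markers, Cxcr2 among them, were taken as a list of their own. Of 12 tested, 3 rose at each time-point of the first hour and 9 at each later one, and by limma 0 were called from 3 h to 6 h or from 6 h to 9 h. The median change was 1.07 at 0.5 h, 2.38 by 3 h and 4.18 in the last arrays, beside 0.0024, 0.00038 and 0.015 over all genes. The 0.5 h median cannot be read as a rise of the list, since Cxcl6 and Il1a, at background on every array of both groups, differed by 1.28 and 1.26 between the same time-points. S100a8 read -2.70, -2.87 and -2.92 in the 0 h arrays, 0.60, -0.47 and 0.75 by 0.5 h, and 1.48, 2.43 and 2.94 by 3 h. It rose by 3.12 at 0.5 h (SE 0.37, adjusted P = 0.000335), with a rise of 6.12 by 9 h (adjusted P = 1.58e-07). S100a9, its partner in calprotectin, rose by 3.13 and 5.44 at the same time-points. Mmp8, the collagenase of neutrophil granules, was at least 29.8-fold higher at 3 h (adjusted P = 1.43e-06).

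Mpo, the azurophil granule peroxidase, was not called at any time-point, with changes from 0 h of 1.06 by 0.5 h, 1.23 by 1 h (adjusted P = 0.151) and 0.56 by 3 h, and of 0.043 and 0.19 in the 6 h and 9 h arrays (SE 0.49 for each). Ltf was well above background on no array at 0 h and was not called. The summed level of the 12 markers ranged from 1.65 to 2.61 in the 0 h arrays, from 3.43 to 6.12 by 0.5 h and from 4.30 to 6.00 by 1 h. The ranges were 9.91 to 24.5 for the 3 h arrays, 16.6 to 24.4 for those of 6 h and 20.0 to 24.0 for those of 9 h. Few probes carried this sum. Lcn2 made up 67.5% to 73.3% of it in the 0 h arrays, and S100a8 with S100a9 made up 68.4% to 81.3% by 3 h and 80.1% to 83.1% by 9 h. More cells of a type and more RNA per cell cannot be told apart in these bulk samples, and the part of arriving cells in the level of any ligand was not tested.

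**Figure D5:**
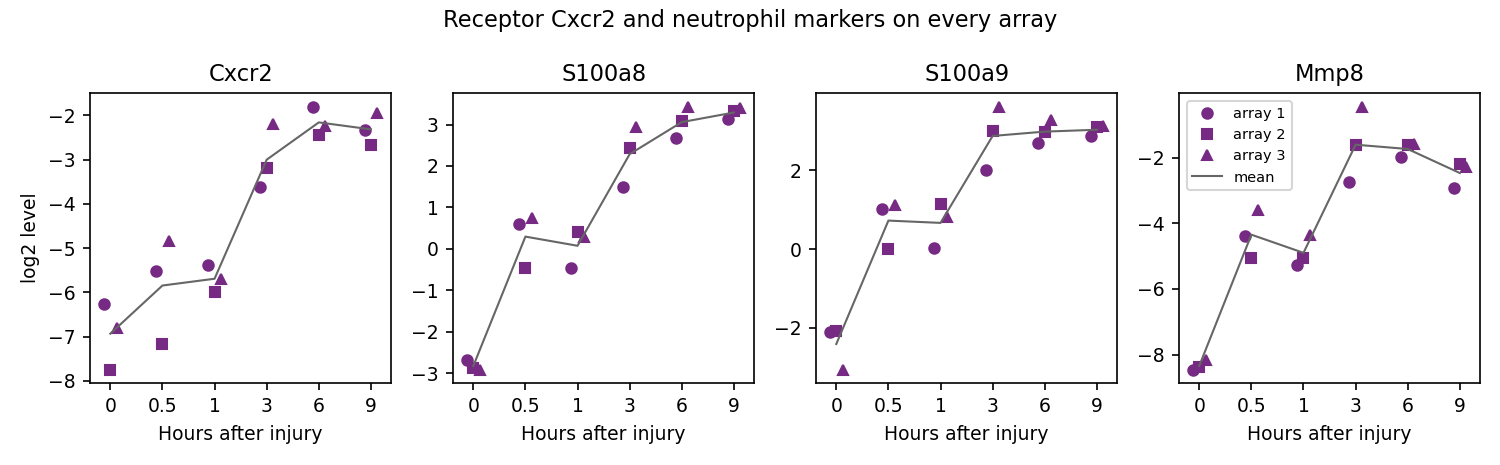
Log2 levels of the receptor gene Cxcr2 and of the neutrophil markers S100a8, S100a9 and Mmp8 on each of the 18 arrays, with hours after injury spaced evenly on the horizontal axis and an axis of its own for each gene. Symbols are the 3 arrays of a time-point and lines join the means. The 3 h arrays of S100a8 lie between 1.48 and 2.94, and every gene is higher at 3 h than at 0 h on all arrays.

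The tissue label held in these arrays. All 14 Schwann cell markers were well above background at 0 h, and their summed level lay between 865 and 1025 in the 0 h arrays and between 685 and 780 by 9 h, where 5 had fallen and 2, Gfap and Ngfr, had risen. Of 10 macrophage markers 4 rose and 1 fell at 9 h, of 10 endothelial markers 2 rose and 2 fell, and of 8 fibroblast markers 0 rose and 5 fell. The 3 tested erythroid markers were not called at any time-point, but their median change was 1.65 at 0.5 h and 1.58 at 3 h, where 2 and 3 of them were higher at an unadjusted P under 0.05, and the part of blood in the neutrophil markers was not tested. Of 5 platelet markers, Ppbp was called at 0.5 h and from 3 h on, and Gp9 at 6 h, with median changes of 0.81 at 0.5 h, 0.82 at 3 h and 1.12 by 6 h. Their summed level ran from 5.95 to 9.85 in the 0 h arrays, from 11.1 to 12.9 by 0.5 h and from 7.21 to 31.7 by 6 h, and its part in the other results was not tested. Of 9 skeletal muscle markers 0 were called by limma, with 1 lower at 1 h at an unadjusted P under 0.05, but they were very uneven, with a summed level of 1533 on array 1 of 0 h, 96.4 and 138 on the other two, and 1.88 to 423 at the later time-points. Without array 1 of 0 h the changes at 9 h were 4.85 for Cxcl1, 8.01 for Cxcl2 and 7.80 for Cxcl3. Between 65.9% and 93.5% of the non-control spots were well above background on an array.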

How the data were processed

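Scanner output of 18 one-colour Agilent rat arrays was used. The authors deposited processed intensity values made with Agilent Feature Extraction (10.5.1.1 in the file headers; the methods name another version, and GeneSpring for analysis), used here for every main value. The authors also deposited a log2 matrix, whose values had 1 distribution on every array (median 7.76) and whose normalization is not given in the sources used here, and it was used as an alternative. Control and outlier spots were left out, spots of a probe were averaged, and log2 of the processed signal minus each array's 75th percentile was fitted with limma 3.58.1 in R (6 time-points in 1 model). Genes were named through RefSeq accessions or symbols, and the tested probe with the highest mean stood for a gene. P-values were adjusted by Benjamini-Hochberg over 32116 tested probes. The limma step was tested on simulated data. The members and lists were chosen with earlier results of these data known, and other genes were named for the 5 courses most like each member. Precision is limited by 3 arrays per time-point. Alternatives were other background corrections, scalings, filters, blocks (replicate number, scan day, slide), priors and leaving out each array. Correlation between arrays of a time-point was 0.976 to 0.992. Of the listed genes, 1 is not reported here by name.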

Additional observations from a re-analysis of the deposited data

How the results depend on the processing

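Each ligand kept the direction of its changes at 0.5 h and 9 h from 0 h under every scaling, background correction and array left out that was run on its tested probe, and so did the difference of 9 h from 3 h. Sizes moved. With normexp the changes at 0.5 h and 9 h were 5.36 and 4.66 for Cxcl1, 5.59 and 6.31 for Cxcl2, and 1.07 and 6.43 for Cxcl3. Scaling to the median gave 5.41 and 4.72 for Cxcl1. The deposited matrix gave 5.42 for Cxcl1 at 0.5 h, 6.72 and 7.46 for Cxcl2, and 1.77 and 7.51 for Cxcl3, and quantile normalization 7.70 for Cxcl3 at 9 h. The second Cxcl3 probe, at background on 17 of 18 arrays, gave 1.27 at 0.5 h, -0.38 at 9 h, -2.12 from 3 h to 6 h, -0.75 from 6 h to 9 h and -2.87 from 3 h to 9 h. The small difference of Cxcl1 between 3 h and 1 h changed sign with normexp (-0.085) and ran from -0.10 to 0.31 as arrays were left out.

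With normexp the listed genes called were 4, 5, 15, 17 and 18 at the 5 time-points against 0 h, 5 from 1 h to 3 h, 1 from 3 h to 6 h and 24 over all time-points, where the values reported were 10, 15, 28, 31, 32, 21, 5 and 40. Genes with calls lost only there include Cxcl6, Il1a, Il1r1, Selp and Csf2. Keeping only probes above background on all 18 arrays left 19 at 6 h, since fewer genes were tested. From 3 h to 6 h the trended robust prior called 8 and, as arrays were left out, 3 to 7 were called. With replicate number as a block 10 were called from 3 h to 6 h, and no other count moved by over 1.5 times. The numbers share no stated animal or batch and same-numbered arrays correlated between -0.26 and 0.56 in their deviations, so the arrays were not taken as paired. That 10 of 18 arrays correlated best with their own number, and that Cxcl3 lay below its group mean on array 1 and above it on array 3 at all 6 time-points, is a hint of a shared effect from the data, not from the design. The cause of these shifts was not tested. Scan day could be blocked only for 0.5 h against 0 h and between later time-points. The slide as a random block (correlation -0.0125) gave the same side for every count. With a correlation so near 0 that fit is close to the main one. Each slide held 1 time-point only, so the fit cannot tell slide from time-point. Signal near background at 0 h limits the folds of Cxcl2 and Cxcl3.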
